A study of Mus musculus with 14 samples.

Results

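The Dlk1-Dio3 imprinted domain was taken as the stretch of mouse chromosome 12 from 20 kb upstream of Dlk1 to 20 kb downstream of Dio3, chr12:110671033-111539307 on NCBI build 37 (mm9), which is 868 kb long. Its members were the MBD-seq peaks of 14 samples that overlapped this stretch. In MBD-seq, sonicated DNA is captured by a protein domain that binds methylated CpGs and is then sequenced. A pile-up of tags that passes the caller's threshold, a peak, marks DNA rich in methylated CpGs. The 14 samples held 906 peaks of the domain among 1063163 peaks in all, and merging them with an overlap of at least 1 bp gave 118 regions of the domain among 153099 regions of the genome.

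The iPS cell clones had been made from mouse embryonic fibroblasts (MEFs) with retroviruses that carry Oct3/4, Sox2, Klf4 and c-Myc. They comprised 4 clones of Aid+/+ iPS cells (967B2, 967B4, 979B1 and 979B3, replicates 1 to 4) and 4 clones of Aid-/- iPS cells, in which Aid was disrupted (979F1, 979F3, 981E1 and 981E4, replicates 1 to 4). All 8 carried a Nanog-GFP reporter, came from male cells whose background mixed the strains C57BL6, DBA and 129S4, and were taken at passage 6 from gelatin with puromycin in the medium. The 3 ES cell lines, RF8 (129SV, passage 19), MG1.19 (129Ola) and B6 ES (C57BL6), also grew on gelatin, and the sex of B6 ES is not given. The strain of RF8 is that of the labels, while the paper's methods give 129S4. The 3 cultures of Aid+/+ MEFs were male, carried Nanog-GFP on the mixed background and were at passage 3. Each sample is 1 clone, line or culture, the ES lines differ from all other samples in strain, and no Aid-/- MEF was analysed here.

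Imprinted genes are expressed from only the maternal or only the paternal chromosome. In this domain the protein-coding genes Dlk1, Rtl1 and Dio3 are expressed from the paternal copy, and the noncoding RNAs Meg3, Rian and Mirg, with a large set of small RNAs, from the maternal copy. An intergenic element upstream of Meg3 is methylated on the paternal copy from the germline on and controls the domain, while methylation over the Meg3 promoter is added on the same copy after fertilization. Gain of methylation at Meg3 with silencing of its RNA is known from a share of mouse iPS clones. By the GENCODE annotation, Dlk1 lies at chr12:110691033-110701546, Meg3 at chr12:110779211-110809936, Rian at chr12:110842155-110899919, Mirg at chr12:110973191-110987665 and Dio3 at chr12:111517278-111519307 on the plus strand, and Rtl1 at chr12:110827404-110838540 on the minus strand. MBD-seq peaks carry no information on the parental copy, and absence of a peak does not show absence of methylation.

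Libraries differed in ways that bear on every value below. The filter that keeps at most 2 tags per position left 6.65 to 15.9 M tags (M, the prefix mega) in the iPS libraries, 10.2 to 15.5 M in ES and 17.5 to 19.6 M in MEFs. It kept 21.3 to 56.1% of the tags of an iPS library, 50.8 to 55.3% in ES and 58.2 to 71.1% in MEFs, and peaks then held 49.6 to 62.5%, 16.7 to 54.5% and 19.2 to 27.4% of the kept tags. The share of all regions in which every iPS clone stood above every MEF culture, or above every ES line, per M kept tags was not counted. The libraries were sorted into 4 processing runs by the prefix of the run name and the MACS version in the peak headers, and whether these mark batches is not given. Run A held Aid+/+ clone 1 and Aid-/- clones 1, 2 and 4, run B held the other 3 Aid+/+ clones, run C held Aid-/- clone 3, the ES lines and MEF culture 1, and run D held the other MEF cultures. Of 5 pluripotency genes, Nanog had a promoter peak in 2 MEF cultures, Tdgf1 and Dppa5a in 1 each and Dppa3 and Zfp42 in none, and none of the 5 had one in any iPS or ES library. Of 5 fibroblast genes, Col1a1 had a promoter peak in 8 iPS clones, 1 ES line and no MEF culture, and Thy1, Twist1, Tbx5 and Prrx1 had none in any sample.

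A few stretches carry the results and are shown first, on the plus strand of build 37. Capitals mark CpGs, the sites at which mouse DNA is mainly methylated. The first is 300 bases at the summit of the largest peak of the intergenic element, chr12:110765671-110765970, with 17 CpGs. The second lies across the Meg3 start, chr12:110778981-110779280, with 12 CpGs, where every iPS clone had a peak and no MEF culture had one. The third, chr12:110779787-110780086, with 15 CpGs, lies in the first intron of Meg3 at the median summit position of the intron peaks, 726 bp downstream of the start.
Intergenic element: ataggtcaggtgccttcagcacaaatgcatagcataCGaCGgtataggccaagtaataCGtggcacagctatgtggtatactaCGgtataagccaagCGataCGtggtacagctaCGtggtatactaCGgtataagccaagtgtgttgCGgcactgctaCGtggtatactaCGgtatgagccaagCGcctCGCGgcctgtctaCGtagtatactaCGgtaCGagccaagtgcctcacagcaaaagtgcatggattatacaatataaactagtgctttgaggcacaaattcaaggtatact
Meg3 start: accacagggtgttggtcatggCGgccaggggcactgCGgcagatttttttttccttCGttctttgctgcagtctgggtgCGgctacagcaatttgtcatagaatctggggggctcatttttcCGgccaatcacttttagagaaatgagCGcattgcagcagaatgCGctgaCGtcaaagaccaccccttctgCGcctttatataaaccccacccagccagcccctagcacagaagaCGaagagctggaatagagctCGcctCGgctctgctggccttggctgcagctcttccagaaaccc
Meg3 first intron: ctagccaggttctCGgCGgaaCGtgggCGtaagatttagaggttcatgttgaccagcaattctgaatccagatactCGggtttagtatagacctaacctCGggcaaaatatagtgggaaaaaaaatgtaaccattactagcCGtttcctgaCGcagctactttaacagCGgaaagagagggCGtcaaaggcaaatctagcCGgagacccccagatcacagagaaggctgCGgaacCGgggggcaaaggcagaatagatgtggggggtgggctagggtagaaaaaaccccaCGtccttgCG

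A further stretch, chr12:110766430-110766729, is the part of the intergenic element richest in TGCCGC, the hexamer that the imprint-protecting protein ZFP57 binds when it is methylated. Here capitals mark the 5 matches instead.
Intergenic element, hexamers: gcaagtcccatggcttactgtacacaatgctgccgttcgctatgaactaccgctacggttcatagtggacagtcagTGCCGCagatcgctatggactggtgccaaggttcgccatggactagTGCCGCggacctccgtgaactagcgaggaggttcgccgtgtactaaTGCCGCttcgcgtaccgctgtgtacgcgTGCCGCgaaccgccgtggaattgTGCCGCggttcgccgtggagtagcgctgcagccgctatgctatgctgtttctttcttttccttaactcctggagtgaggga

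The whole intergenic region, chr12:110764229-110767162, held 9 matches to TGCCGC or its reverse complement GCGGCA, counted on both strands. Of 151065 windows of the same length centred on the merged regions of the genome, 34.3% held at least 1 match and 0.0139% held as many as 9. The Meg3 promoter region, chr12:110777734-110781509, held 1 match, and 38.7% of windows of its length held at least as many. Both regions were rich in CpGs, with 3.44 CpGs per 100 bp in the intergenic region and 3.23 in the Meg3 promoter region against a median of 2.22 over 151067 regions, which placed them above 92.8% and 90.4% of regions. A match is a run of letters and says nothing of binding in these cells.

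**Figure D1:**
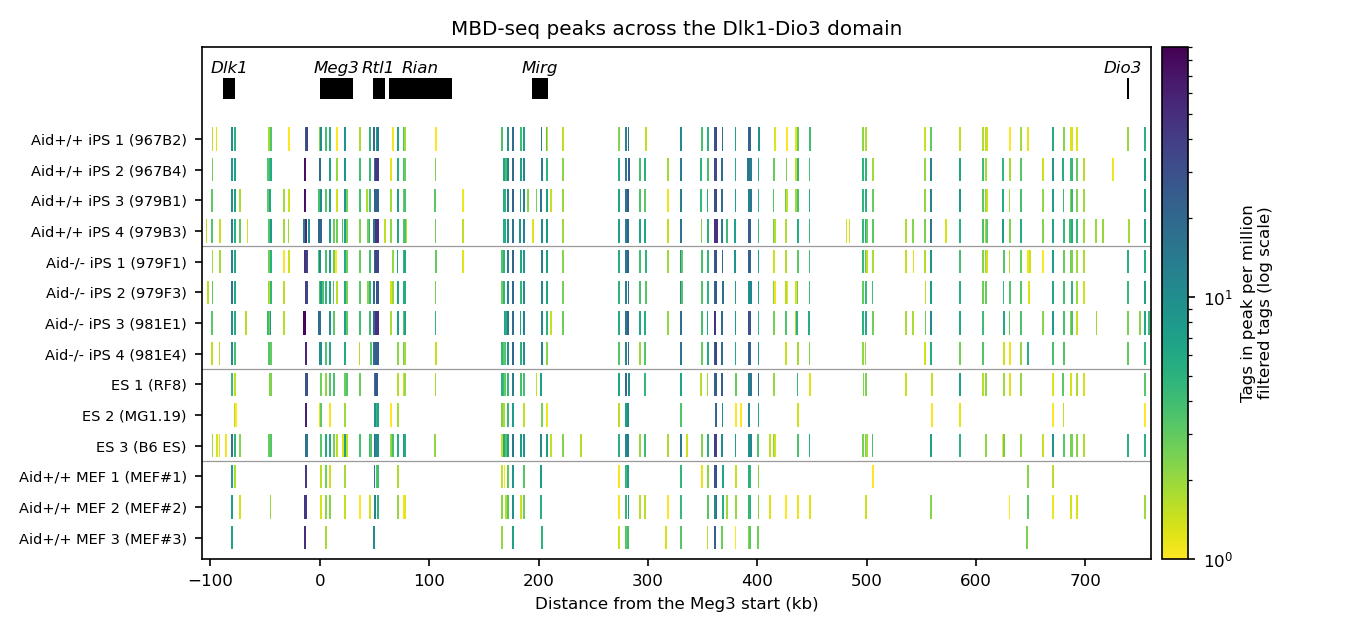
Peaks of each sample across the domain, by distance from the Meg3 start in kb, with genes as black bars on top and shading for tags in a peak per M filtered tags on a log scale. The intergenic element at -13.4 kb is dark in all 14 rows, while the Meg3 promoter peaks at 0 are paler in ES and MEF rows than in iPS rows.

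The intergenic element was covered by peaks in 14 of 14 samples. Its summit in the largest peak lay at -13.4 kb from the Meg3 start. Aid+/+ iPS clones 1 to 4 gave 62.9, 76.2, 73.9 and 65.2 tags per M filtered tags in this region, and Aid-/- iPS clones 1 to 4 gave 83.7, 76.4, 83.1 and 55.6. The ES lines RF8, MG1.19 and B6 ES gave 57.6, 60.7 and 32.7, and MEF cultures 1 to 3 gave 43.0, 41.7 and 48.1. Every iPS clone thus stood above every MEF culture, and 1 iPS clone, 981E4, lay below the ES lines RF8 and MG1.19. The mean of the 8 clones was 72.1 ± 10.0 (SD, n = 8), that of ES 50.4 ± 15.4 (SD, n = 3) and that of MEFs 44.3 ± 3.39 (SD, n = 3).

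For all peaks between Dlk1 and 1500 bp upstream of Meg3, with peaks placed by their summit, iPS clones had 87.1 ± 13.8 tags per M (SD, n = 8), ES lines 55.9 ± 10.6 (SD, n = 3) and MEFs 45.4 ± 2.56 (SD, n = 3). The differences from ES (exact two-sided permutation test, p = 0.0242, adjusted p = 0.0455 over 15 tests) and from MEFs (exact permutation p = 0.0121, adjusted p = 0.0303) passed 0.05, and 0.0121 is the smallest p that 8 against 3 samples allow. This order depended on the scale. Per M of all tags before the duplicate filter, the means were 30.8 in iPS, 29.5 in ES and 29.4 in MEFs (exact permutation p = 0.776 and 0.727). On that scale only the divisor changed, and the tags counted in peaks stayed those of the peak lists. Per M tags in peaks the order turned, with 153 in iPS, 213 in ES and 192 in MEFs (exact permutation p = 0.436 and 0.121). The difference at the intergenic element was therefore set by the scale used.

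At the Meg3 promoter region the groups stood apart per M filtered tags, while the share of all regions that do so was not counted. Aid+/+ iPS clones 1 to 4 gave 13.1, 19.7, 18.7 and 21.1 tags per M filtered tags, and Aid-/- iPS clones 1 to 4 gave 14.1, 15.7, 18.8 and 9.51. The ES lines gave 2.64, 4.24 and 3.29, MEF cultures 1 and 2 gave 1.58 and 1.31, and MEF culture 3 had no peak there, in a library whose smallest called peak held 16 tags. The lowest iPS clone, 981E4, was 2.24 times the highest ES line and 6.02 times the highest MEF culture, and the highest clone, 979B3, was 4.97 and 13.3 times them. The mean over iPS clones was 16.3 ± 3.92 (SD, n = 8), 4.81 times the ES mean of 3.39 ± 0.806 (SD, n = 3), and the MEF mean was 0.965 ± 0.846 (SD, n = 3), with the missing peak entered as 0.

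In the window from 1500 bp upstream to 500 bp downstream of the Meg3 start, iPS clones exceeded ES lines by 12.5 tags per M and MEFs by 14.9 (exact two-sided permutation test, p = 0.0121 each, adjusted p = 0.0303). When only the 33694 most significant peaks of each library were kept, the number in the shortest list, the differences were 6.11 and 7.53 and neither passed (adjusted exact permutation p = 0.579 each). With all tags before the duplicate filter as the divisor of the same counts, every iPS clone still exceeded every ES line, at 3.996 to 7.36 against 1.34 to 2.34 tags per M, and every MEF culture, at most 1.12. Per M tags in peaks, iPS clones lay at 19.2 to 33.7, above MEFs at 5.88 or less, but overlapped ES at 6.03 to 25.4, where the highest value came from MG1.19, the library with the fewest tags in peaks (adjusted exact permutation p = 0.143 against ES).

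Relative to the intergenic element of the same library, a measure that needs no library size and was chosen after the values were seen, the Meg3 promoter region held 20.9, 25.8, 25.2 and 32.3% as many tags in Aid+/+ iPS clones 1 to 4 and 16.8, 20.5, 22.6 and 17.1% in Aid-/- iPS clones 1 to 4. The share was 4.58, 6.98 and 10.1% in the ES lines and 3.68, 3.15 and 0% in MEFs. The 8 clones therefore did not overlap ES or MEFs on this scale, with a mean of 22.7% ± 5.12 (SD, n = 8) against 7.21% ± 2.74 (SD, n = 3) and 2.28% ± 1.99 (SD, n = 3). How many other regions separate the groups in this way was not counted. The measure still depends on the length called as peak, which was 1589 to 3776 bp in iPS clones and 849 to 1128 bp in ES lines. The 0% of MEF culture 3 stands for an absent peak. Among the libraries of run C, Aid-/- clone 981E1 stood at 22.6%, the ES lines at 4.58 to 10.1% and MEF culture 1 at 3.68%.

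**Figure D2:**
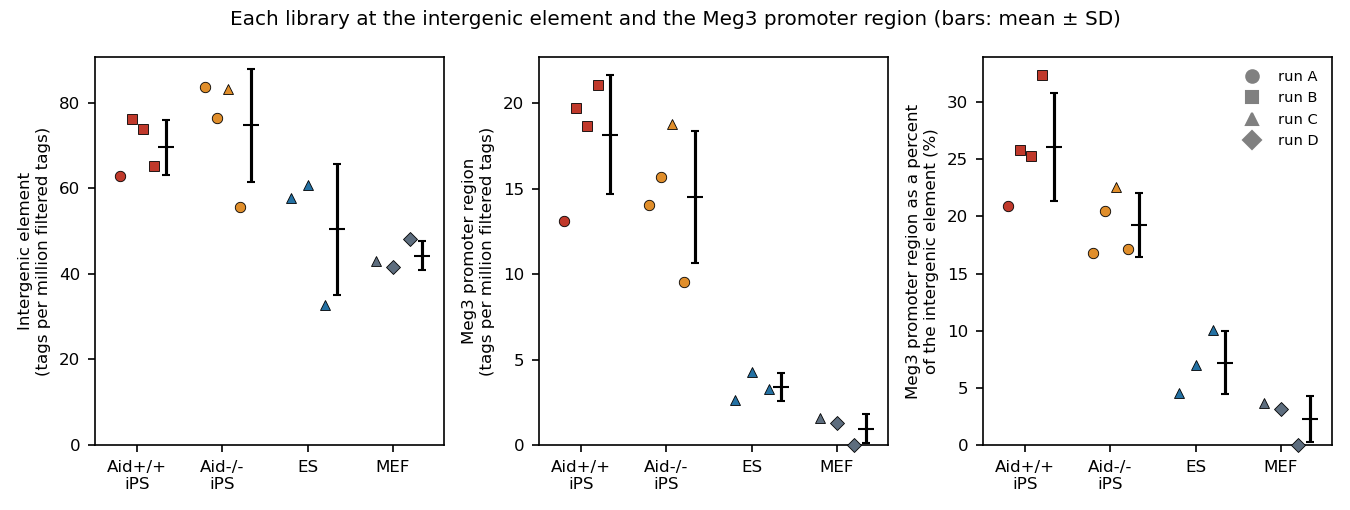
Tags per M filtered tags at the intergenic element (left) and the Meg3 promoter region (middle), and the second as a percent of the first (right), 1 point per library, marker by processing run, bars showing mean ± SD. In the middle and right panels every iPS point lies above every ES and MEF point, while in the left panel iPS and ES points overlap.

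All 13 samples with a Meg3 promoter peak shared a summit in the first intron, 659 to 751 bp downstream of the start. In iPS cells called peaks also ran across the start itself, in 4 of 4 Aid+/+ clones and 4 of 4 Aid-/- clones, either as a peak of their own, with a summit at -149 to -79 bp from it, in 3 clones or as part of a longer peak in 5. Among ES lines only MG1.19 had a peak over the start, with 18 tags, and no MEF culture had one. Called length in the region was 1589 to 3776 bp in iPS clones, 849 to 1128 bp in ES lines and at most 699 bp in MEFs. Fold enrichment at the highest peak, which MACS computes over the local background, was 11.5 ± 3.33 (SD, n = 8) in iPS and 10.7 ± 2.15 (SD, n = 3) in ES, a difference of 0.752 (exact permutation p = 0.836). This p does not show that the heights were alike.

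**Figure D3:**
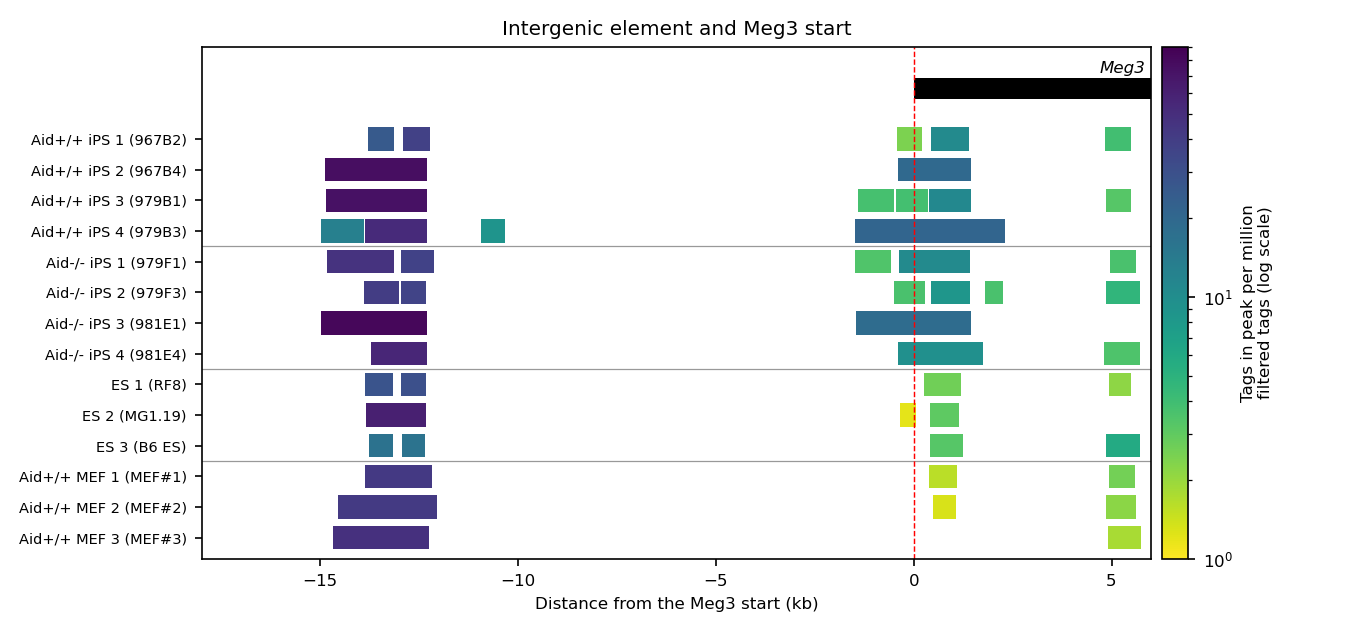
Peaks around the intergenic element and the Meg3 start (dashed line), by distance from the start, 1 row per sample, shaded by tags per M filtered tags on a log scale. Peaks cross the dashed line in all 8 iPS rows, in ES line MG1.19 and in no MEF row, and the intergenic element is covered in every row.

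The study's own rule calls a differentially methylated region (DMR) where all samples of a group share a peak and no sample of the other group has one, and a commonly methylated region (CMR) where all samples of both do. Between Aid+/+ iPS cells and MEFs, 17 of 62 shared stretches in the domain were DMRs of the iPS cells, against 28% of 65107 stretches over the genome. For Aid-/- iPS cells it was 13 of 57, against 21.6% of 59468. Both shares lie close to the genome's. With the 33694 most significant peaks of each library, the domain held 0 DMRs of the iPS cells of either genotype against MEFs or ES lines. With all peaks kept, the stretch over the Meg3 start was among the DMRs of the iPS cells against MEFs in both genotypes. The part common to all 8 clones, chr12:110778848-110779415, runs from -363 to 204 bp relative to the start, with 22 CpGs. The other DMRs of both genotypes lay at -98.8 and -46.7 kb from the Meg3 start, in Rian at 105 kb, in Mirg at 207 kb, and between Mirg and Dio3 at 496, 553, 585, 606, 641 and 679 kb. Aid+/+ clones alone had DMRs in the Meg3 body at 15.07 kb and at 222, 609 and 687 kb, and Aid-/- clones alone at 624.8 kb and at Dio3, with no test of that difference. At all of these no iPS clone exceeded 8.57 tags per M. In the other direction 0 of 21 MEF stretches was absent from Aid+/+ or from Aid-/- iPS cells, against 6.48% and 3.41% over the genome.

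Against ES lines the rule named 2 stretches in each genotype, of 62 in Aid+/+ clones (2.03% over the genome) and of 57 in Aid-/- clones (1.03%), and these were the same 2 regions, 426 and 553 kb downstream of the Meg3 start, between Mirg and Dio3. The region at 553 kb, chr12:111331871-111332696, had no MEF peak either. The region gave 1.45, 2.06, 2.12 and 2.49 tags per M in Aid+/+ iPS clones 1 to 4 and 1.69, 1.62, 2.71 and 1.396 in Aid-/- clones 1 to 4. These peaks held 16 to 27 tags, where the smallest peaks called in the iPS libraries held 10 to 14. The region at 426 kb gave 0.880 to 3.46 tags per M in iPS clones, had no ES peak and had a peak in MEF culture 2 at 0.856. The middle of the region at 553 kb, chr12:111332144-111332443, is shown with CpGs in capitals because only iPS cells had a peak there.
Region at 553 kb: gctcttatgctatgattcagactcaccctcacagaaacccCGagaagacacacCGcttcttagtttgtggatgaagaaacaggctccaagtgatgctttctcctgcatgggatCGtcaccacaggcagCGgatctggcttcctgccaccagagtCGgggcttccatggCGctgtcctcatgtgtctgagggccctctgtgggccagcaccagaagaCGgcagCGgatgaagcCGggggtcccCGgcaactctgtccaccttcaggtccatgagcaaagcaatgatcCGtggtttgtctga

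No stretch shared by the ES lines was absent from the iPS clones, 0 of 34 for either genotype, against 0.181% for Aid+/+ and 0.224% for Aid-/- over the genome. The Meg3 start was no DMR against ES, since MG1.19 had a peak there. Between the genotypes the domain held no DMR. Of 62 stretches common to Aid+/+ clones and 57 common to Aid-/- clones, 0 were absent from the other genotype, against 0.412% and 0.106% over the genome, and 53 were CMRs in each direction.

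Tag counts were also tested, in regions where each sample of a comparison had a peak, by edgeR's quasi-likelihood test over the whole genome, scaled by TMM on tags in peaks, with Benjamini-Hochberg (BH) adjustment. Between Aid-/- and Aid+/+ iPS cells 0 of 48 domain regions passed 0.05 (0.00196% over the genome), 1 had an unadjusted p under 0.05 in edgeR, and DESeq2 also called 0. Their median log2 fold change was -0.07, against 0.00 over all regions. The Meg3 promoter region changed by -0.26 ± 0.18 (SE, edgeR adjusted p = 1.00) and the intergenic region by 0.16 ± 0.23 (SE, edgeR adjusted p = 1.00). By the exact permutation test over samples, Meg3 promoter tags per M were 13.6 ± 3.93 in Aid-/- and 18.1 ± 3.48 in Aid+/+ clones (SD, n = 4 each, p = 0.171, adjusted p = 0.281), where 0.0286 is the smallest p possible. Per M of all tags the means were 4.57 and 6.45 (exact permutation p = 0.0286, adjusted p = 0.0714). A pair of clones of each genotype, 979B1 and 979B3 and 979F1 and 979F3, share the number that opens their names. The paper gives its experiments of establishing iPS clones numbers of this form, and this number is among them. It does not state that clone names carry the number of the experiment. With that number as a block, edgeR again called 0 domain regions, and the fold changes were -0.25 ± 0.24 and 0.37 ± 0.33 (log2, SE). The other numbers each occur in a single genotype, so this fit compares 979B1 and 979B3 with 979F1 and 979F3. The former were of run B and the latter of run A, so genotype and run cannot be told apart in it. The processing run ran with the genotype. Clones of run A, 3 of them Aid-/-, lay at 9.51 to 15.7 tags per M in the region and the other 4, 3 of them Aid+/+, at 18.7 to 21.1. Inside run A the Aid+/+ clone stood at 13.1 and the Aid-/- clones at 14.1, 15.7 and 9.51.

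Against ES lines edgeR called 0 of 27 domain regions for Aid+/+ iPS cells (0.0165% over the genome) and 0 of 28 for Aid-/- iPS cells (0% over the genome), with an unadjusted edgeR p under 0.05 in 3 and 2 of them. DESeq2 called 1 and 0. The Meg3 promoter region had the highest fold change of the tested domain regions in both fits, at a log2 fold change of 1.57 ± 0.37 (SE, edgeR adjusted p = 0.243) in Aid+/+ clones and 1.20 ± 0.38 (SE, edgeR adjusted p = 0.402) in Aid-/- clones, above 99.6% and 99.0% of all regions tested. It was the 1 region that DESeq2 called for Aid+/+ clones (DESeq2 adjusted p = 0.0289). With peak length as an offset, its log2 fold change was 0.35 ± 0.35 in Aid+/+ and -0.03 ± 0.33 in Aid-/- clones (SE, edgeR adjusted p = 0.750 and 0.982). By limma on log2 fold enrichment it was 0.11 ± 0.30 and 0.01 ± 0.21 (SE, limma adjusted p = 0.864 and 0.981). The number of edgeR calls changed with the library B6 ES, which had 106385 peaks against 33694 and 58916 in the other lines. Without it, edgeR called 5 domain regions in each genotype, 4 higher and 1 lower, where 10.1% and 10.8% of all regions tested were called, and the Meg3 promoter region had a log2 fold change of 1.33 ± 0.37 (SE, edgeR adjusted p = 0.0407) in Aid+/+ clones and 0.96 ± 0.38 (adjusted p = 0.116) in Aid-/- clones. The intergenic region had -0.41 ± 0.38 and -0.25 ± 0.38 (SE) against ES with all lines, neither past the test. The 2 comparisons share the ES lines.

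Against MEFs edgeR called 7 of 15 domain regions for Aid+/+ iPS cells, 4 higher and 3 lower (43.2% over the genome), and 7 of 15 for Aid-/- iPS cells, 6 higher and 1 lower (44.8%). These shares are near the genome's. The Meg3 promoter region was outside this test because MEF culture 3 had no peak, and with 0 tags entered there its log2 fold change was 2.89 ± 0.81 (SE, edgeR adjusted p = 0.0266) in Aid+/+ clones and 2.59 ± 0.88 (adjusted p = 0.0664) in Aid-/- clones, values that depend on how a missing peak is entered. Without culture 3 no peak was missing, and the region had a log2 fold change of 2.34 ± 0.26 (SE, edgeR adjusted p = 6.6e-05) in Aid+/+ clones and 1.98 ± 0.29 (adjusted p = 2.5e-05) in Aid-/- clones. All called regions between Mirg and Dio3 were higher in iPS cells. They lay at 280, 282, 368 and 379 kb in both genotypes and also at 273 and 330 kb in Aid-/- clones. Their fold changes stood above 72.6 to 91.2% of all regions tested in Aid+/+ clones and 76.2 to 97.0% in Aid-/- clones. Regions of this stretch that were not called ran from -0.23 to 0.88 in Aid+/+ and from -0.23 to 0.33 in Aid-/- clones (log2). Of the called regions, that at 379 kb rose most, by a log2 fold change of 0.84 ± 0.26 (SE) in Aid+/+ clones and 1.10 ± 0.25 in Aid-/- clones (edgeR adjusted p = 0.0206 and 0.00284), and that at 368 kb by 0.62 ± 0.19 and 0.82 ± 0.19 (adjusted p = 0.0216 and 0.00273).

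The regions called lower than in MEFs were those nearest the start of the domain. In Aid+/+ clones they were the Dlk1 last exon at -0.76 ± 0.21 (SE, edgeR adjusted p = 0.0111), the intergenic element at -0.66 ± 0.19 (adjusted p = 0.0154) and the Rtl1 region at 49 kb at -0.61 ± 0.16 (adjusted p = 0.00887). In Aid-/- clones only the last of them passed, at -0.45 ± 0.17 (adjusted p = 0.0361). On the scale of tags per M filtered tags all 3 had higher means in iPS cells than in MEFs, at 10.98 against 6.85, 72.1 against 44.3 and 19.04 against 11.6, so their direction is set by the scale.

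**Figure D4:**
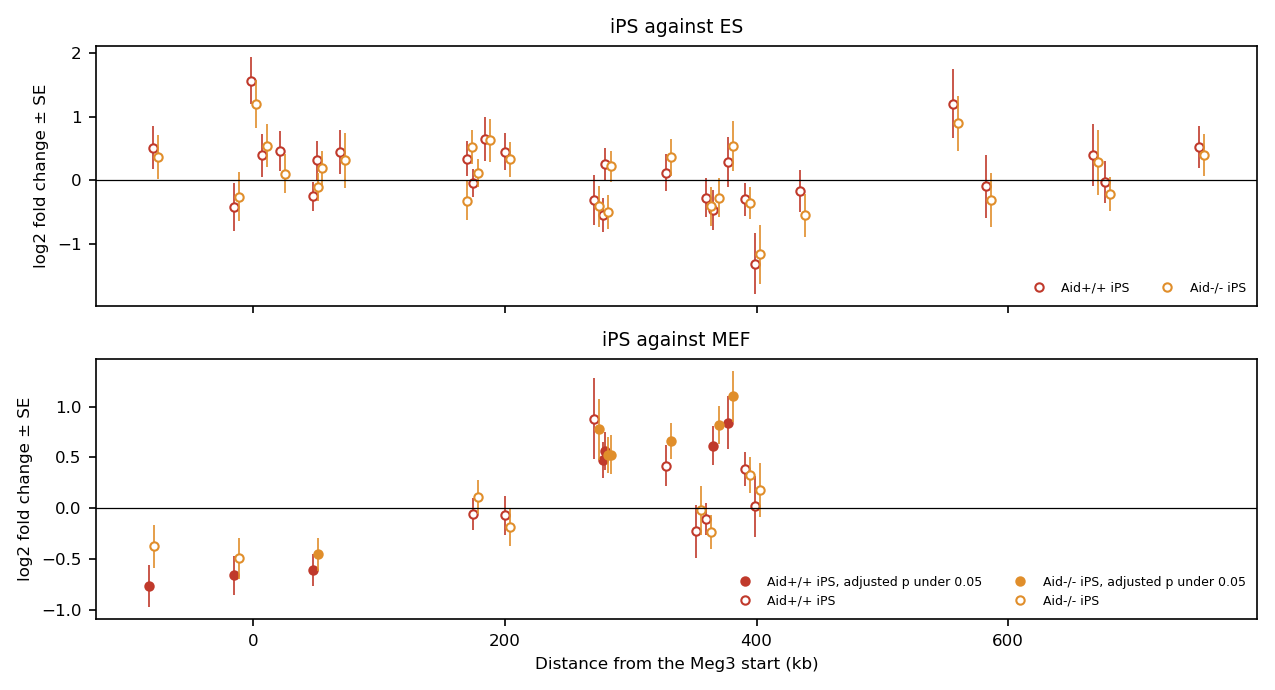
Log2 fold changes ± SE (edgeR, tags in peaks, TMM) of domain regions with a peak in every sample compared, by distance from the Meg3 start in kb, iPS against ES (top) and against MEF (bottom), filled where the adjusted p was under 0.05. The topmost points against ES lie at the Meg3 promoter region, at 1.57 and 1.20, and the filled points between Mirg and Dio3 against MEF lie above 0.

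By gene, in order along the domain, the results were as follows. Dlk1, a paternally expressed transmembrane protein of the Notch ligand family, had no peak in the window around its start in any sample. Its stronger region lay in the last exon, over coding sequence and the untranslated end, chr12:110697644-110698839, called in all iPS clones and MEF cultures and in 2 of 3 ES lines. It gave 8.08 to 16.08 tags per M in iPS clones, 4.21, 0 and 15.3 in RF8, MG1.19 and B6 ES, and 6.53 to 7.08 in MEFs, so iPS clones stood above MEFs on this scale and the ES lines spanned both. A second region, chr12:110700816-110701684, lay at the end of the gene, with peaks in 8 of 8 iPS clones at 3.75 to 7.14 tags per M, in 3 of 3 ES lines at 1.57 to 4.90 and in MEF culture 1 alone, at 1.73.

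Meg3, the maternally expressed long noncoding RNA, held 4 to 8 peaks centred inside the gene per iPS clone, 3 to 8 in ES lines and 1 to 4 in MEFs. Peaks centred upstream of the start were not counted here. Those inside summed to 33.2 ± 7.64 tags per M in iPS clones (SD, n = 8), 17.7 ± 11.5 in ES lines and 5.504 ± 3.20 in MEFs (SD, n = 3 each). A pair of further regions of the body, with summits at 8.78 and 22.7 kb, had peaks in all samples but MEF culture 3. That at 22.7 kb covers the microRNA gene Mir770. The region at 5.23 kb went the other way, with peaks in 3 MEF cultures, 2 ES lines and 5 of 8 iPS clones. It gave 1.81 to 2.60 tags per M in MEFs and 0 to 4.75 in iPS clones.

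Rtl1 encodes a retrotransposon-derived protein needed in the placenta, and its mRNA is opposed by a maternally expressed antisense transcript that carries microRNAs. A first region lay near the end of its coding sequence, chr12:110827969-110829343, over Mir431, with a peak in 14 of 14 samples, at 15.7 to 22.1 tags per M in iPS clones, 9.43 to 16.8 in ES lines and 10.4 to 12.7 in MEFs. A longer region, chr12:110829727-110833253, lay over Mir433, Mir127, Mir434 and Mir432, with 22.2 to 49.1 in iPS clones, 28.0, 10.7 and 21.1 in the ES lines, 7.14 and 5.02 in MEF cultures 1 and 2 and no peak in culture 3. On this scale all iPS clones stood above all MEF cultures in both regions, and ES lines overlapped the iPS range in both. The share of all regions with iPS clones above MEFs in this way was not counted. By edgeR, scaled on tags in peaks, the first region was instead lower than in MEFs, with the values given above. Mature microRNAs encoded there, from RefSeq (GRCm38.p6), are printed with the seed, bases 2 to 8, in capitals, to show that no seed is shared among them. All 4 genes named for a sequence had an entry.
miR-431-5p: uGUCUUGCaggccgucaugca
miR-433-3p: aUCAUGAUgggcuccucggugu
miR-127-3p: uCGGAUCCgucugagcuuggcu
miR-434-3p: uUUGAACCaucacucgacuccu

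Over the domain, 33 of 57 annotated microRNA genes lay in a region, 19 of them in peaks of all 8 iPS clones and 6 in peaks of all 14 samples. An iPS clone had 22 to 29 of them in peaks, an ES line 17 to 28 and a MEF culture 7 to 20. Regions covered 12.7% of the stretch from the first to the last microRNA gene and held 57.9% of the genes, a description only, since the genes lie in clusters and share peaks.

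Rian, a maternally expressed RNA that hosts small nucleolar RNAs, had no peak in the window around its start in any sample and 8 regions in its body. Peaks centred in the gene summed to 18.3 ± 5.51 tags per M in iPS clones (SD, n = 8), to 2.69, 7.04 and 29.2 in the lowest, middle and highest ES line and to at most 4.28 in MEFs. Mirg, the noncoding host of a microRNA cluster, had a region in its body, chr12:110980818-110982185, over Mir412, Mir369 and Mir410 with a peak in 14 of 14 samples, at 11.1 to 16.07 tags per M in iPS clones, 2.49 to 10.3 in ES and 4.94 to 7.80 in MEFs, so that iPS clones overlapped neither group on this scale. How many of all regions separate the clones from both groups in this way was not counted. By edgeR, scaled on tags in peaks, the log2 fold change of the region from MEFs was -0.07 ± 0.19 (SE) in Aid+/+ and -0.19 ± 0.18 in Aid-/- clones, and from ES 0.45 ± 0.29 and 0.33 ± 0.28, none past the test. A peak in the window around the start of Rtl1 and around that of Mirg was called in 1 Aid+/+ clone each.

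Dio3, the enzyme that inactivates thyroid hormone, is a gene of a single exon with 11.8 CpGs per 100 bp in the window around its start, more than 99.9% of promoters. Its region, chr12:111517009-111518576, spans coding and untranslated sequence and had a peak in 2 of 4 Aid+/+ clones, 4 of 4 Aid-/- clones, B6 ES and no MEF culture. Aid+/+ clones 1 to 4 gave 2.01, 0, 0 and 1.87 tags per M and Aid-/- clones 1 to 4 gave 5.06, 4.35, 2.55 and 2.97. The genotypes did not overlap on this scale, a description with no test. The values of 0 stand for absent peaks. The called peaks of the clones held 17 to 54 tags, with 17 in Aid-/- clone 3 and 18 in Aid+/+ clone 4. How many of all regions separate the genotypes in this way was not counted. Aid+/+ clone 1 and Aid-/- clones 1, 2 and 4 were of the same run. As peaks were missing in 2 clones the region was outside the edgeR test, and the DMR rule does not name it between the genotypes. It was a DMR of Aid-/- iPS cells against MEFs.

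**Figure D5:**
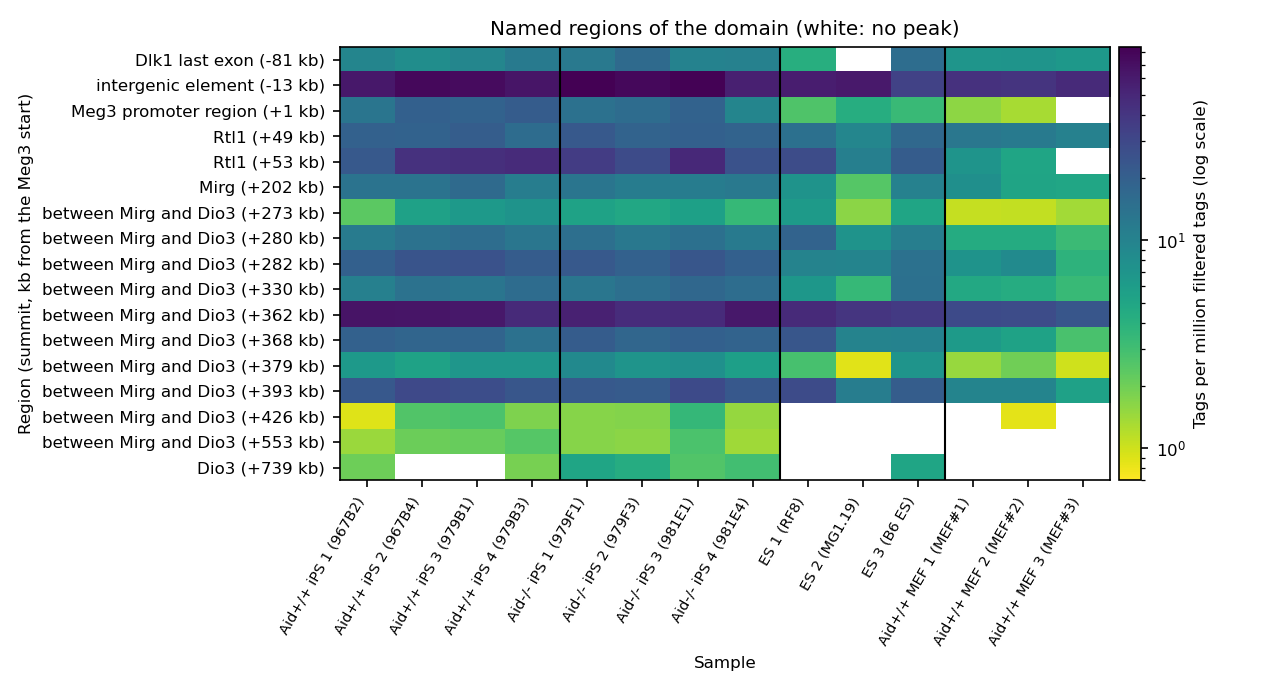
Tags per M filtered tags on a log scale for named regions (rows, with the summit in kb from the Meg3 start) in the 14 samples (columns), white where no peak was called. The Meg3 promoter row runs from 9.51 to 21.1 in iPS columns and is 4.24 or less in ES and MEF columns.

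The long stretch between Mirg and Dio3 held 58 of the 118 regions and 9 of the 13 regions with a peak in every sample. Its strongest region, chr12:111139761-111142960 at 362 kb, gave 46.0 to 65.8 tags per M in iPS clones, 37.4 to 48.1 in ES lines and 23.4 to 28.8 in MEFs, and in total was second only to the intergenic element. The regions at 393 and 282 kb gave 21.2 to 29.6 and 19.2 to 25.5 in iPS clones, 11.1 to 28.4 and 9.83 to 14.1 in ES lines and 5.49 to 9.82 and 3.79 to 8.51 in MEFs. In each of these 3 regions every iPS clone stood above every MEF culture on the scale of filtered tags. By edgeR, scaled on tags in peaks, only the region at 282 kb was called higher than in MEFs. That at 362 kb had log2 fold changes of -0.10 ± 0.16 (SE) in Aid+/+ and -0.23 ± 0.16 in Aid-/- clones. At 393 kb they were 0.39 ± 0.17 and 0.33 ± 0.18, none past the test.

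Over the whole domain, iPS clones had 59 to 95 peaks, ES lines 36 to 85 and MEFs 20 to 50. The excess over MEFs was 43.6 peaks and 30.1 kb of covered length (exact permutation p = 0.0121 and adjusted p = 0.0303 for each), while that over ES was 16.6 peaks and 14.16 kb (exact permutation p = 0.206 and 0.194). Tags per M were 582 ± 78.2 in iPS clones (SD, n = 8), 360 ± 132 in ES lines and 172 ± 34.8 in MEFs (SD, n = 3 each), with exact permutation p = 0.0242 and 0.0121 and adjusted p = 0.0455 and 0.0303. The call against ES was kept in only 1 of 11 tests that left out 1 library. Per M of all tags the difference from ES, 17.9, did not pass (adjusted exact permutation p = 0.75), and per M tags in peaks it turned to -96.0 (adjusted exact permutation p = 0.436). As a percent of all peaks of a library, the domain held 0.0860% in iPS clones, 0.0973% in ES lines and 0.0696% in MEFs on average, and no difference passed (adjusted exact permutation p = 0.162 and 0.136). No difference between the genotypes passed in peak number, covered length or tags per M (exact permutation p = 0.6, 0.543 and 0.543).

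Clone by clone, the 8 iPS clones held 58 to 92 of the 118 regions. Of the 29 regions shared by all ES lines, Aid-/- clones 1, 2 and 4 held all 29 and each other clone held 28. Of the 18 regions shared by all MEF cultures, the 4 clones of run A held 18 and the other clones 15 or 16. Over the genome a clone held 96.6 to 99.1% of the regions shared by all ES lines and 82.7 to 92.8% of those shared by all MEF cultures. Regions with a peak in a clone and in no ES line made up 5.17 to 21.7% of a clone's domain regions against 5.95 to 19.5% of its regions over the genome. For no MEF culture the shares were 24.1 to 47.8% in the domain against 27.8 to 52.4%. The highest share of each was in clone 979B3, which also had the most peaks. A pair of regions, at 166 and 648 kb and chosen after their values were seen, had peaks in all 4 clones of run A and in none of the other 4, a pattern that 655 of 153099 regions (0.428%) showed over the genome. The opposite pattern was found in 0 domain regions and in 1287 (0.841%) over the genome.

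Other imprinted loci were counted for comparison, within 2000 bp of the gene start. Of 12 genes listed, 11 were found in the annotation and Kcnq1ot1 was not analysed here. All 14 samples had peaks at H19, Peg3, Plagl1, Zrsr1 and Nnat, and at Peg10 in all but 1 ES line. No sample had one at Snrpn or Mest, and 1 ES line alone had one at Grb10. Only the start of the annotated gene was looked at, so promoters inside a gene were missed. A count of 0 does not show that a locus lacks methylation. Rasgrf1 had one in 4 iPS clones, no ES line and all MEF cultures. H19, like Meg3 a maternally expressed noncoding RNA with paternal methylation, gave a median of 22.0 tags per M in iPS clones, 16.7 in ES lines and 6.68 in MEFs. Igf2r was in the opposite order, called in a single iPS clone, in 2 ES lines and in all MEF cultures. Medians in iPS and ES libraries were 17.2 and 3.29 tags per M at Meg3 and, among the loci with a peak in all 14 samples, lay furthest apart at Nnat, at 49.2 and 21.1, with no test made.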

How the data were processed

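MBD-seq libraries of 14 samples were analysed. Per the file headers, the authors called peaks in each sample by MACS without a control, at p = 1e-05 with at most 2 tags per position and a local background of 10 kb, on reads aligned to NCBI build 37. The submitters' processing notes name CASAVA 1.8.1, BWA 0.5.9rc1 and MACS 1.4.1, but by their headers the 5 lists of the ES lines, Aid-/- clone 3 and MEF culture 1 were made by MACS 1.4.0rc2. The deposited lists give per peak the count of tags, the −log10 of p multiplied by 10 and the fold enrichment over the local background. A processing run was read from the run name and MACS version of a header. The labels name a GAIIx and the study's methods a HiSeq 2000.

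Peaks of all samples were merged with an overlap of 1 bp. Tags were divided by the filtered tags of the library, a region without a peak was entered as 0, and tags outside peaks were not used here. The 15 comparisons of samples were made by exact two-sided permutation tests with Benjamini-Hochberg adjustment, and DMRs followed the study's rule. Tags in regions with a peak of every sample compared were tested genome wide with edgeR 4.0.16, with DESeq2 1.42.0 and limma 3.58.1 as alternatives, after a test on simulated data. Peak calling selects on tags, so these counts leave out tags below a sample's threshold. Samples are separate clones, lines or cultures. Depth limits small peaks most.

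The members and lists were chosen with earlier results of these data known. Regions were named where they touched a gene start, were a DMR or passed edgeR, and otherwise the 5 with most tags among those inside genes or between Dlk1 and Meg3 and among those with a peak in all samples. The second region of Dlk1 and those of the Meg3 body at 5.23, 8.78 and 22.7 kb were named outside this rule. So were the regions at 166 and 648 kb. Genes were taken from GENCODE and sequences from the NCBI build 37 genome.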

Additional observations from a re-analysis of the deposited data

How the results depend on the processing

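No paired analysis was possible because the replicate numbers only name clones, lines and cultures. A fit with the number in the clone names as a block called 0 domain regions between genotypes, as without it. That fit rested on the clones whose number both genotypes share, where genotype and run cannot be told apart. Per M tags in peaks, differences turned for intergenic tags (iPS minus ES -60.3, iPS minus MEF -38.9, Aid-/- minus Aid+/+ 6.25) and domain tags (iPS minus ES -96.0, Aid-/- minus Aid+/+ 5.21), and the Meg3 promoter difference from ES, 14.4, lost its call. Per M total tags, iPS minus ES of 17.9 for the domain and 1.25 for the intergenic stretch and iPS minus MEF of 1.32 for the latter lost their calls. As a percent of all peaks or covered length, the values were -0.0113 and -0.00572 for iPS minus ES and 0.00210 and 0.00351 for Aid-/- minus Aid+/+, all turned, and 0.0164 for peak number against MEFs, no longer called. With the 33694 most significant peaks of each sample, peak number against ES was -1.17 and the intergenic genotype difference 8.43, both turned, and 21.2 (intergenic against ES), 6.11 and 7.53 (Meg3 promoter against ES and MEFs) lost their calls. DMRs of iPS cells then numbered 0 in all 4 comparisons with ES and MEFs, and those of MEFs 1 against each genotype. Peaks with p at most 1e-10 gave an intergenic genotype difference of 4.02, 1 DMR of Aid+/+ against Aid-/- clones and 1 of Aid-/- clones against ES. Within run A the genotype differences turned to 2.67 peaks, 7.90 kb, 69.4 domain and 10.8 intergenic tags per M. DESeq2 called 1 region for Aid+/+ against ES. Against MEFs edgeR called 3 and 3 regions with peak length as an offset, 3 and 3 with total tags, and 19 and 17 with regions found in no fewer than 0.5 of the samples. Peak length as an offset gave -0.03 (-0.0345) for the Meg3 log2 fold change of Aid-/- clones against ES. The cause of these changes was not tested.

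Leaving out each replicate in turn gave these ranges. For iPS minus ES they were 4.12 to 28.6 for peak number, 4.25 to 24.5 for covered kb, 148 to 275 for domain tags per M, 25.1 to 34.8 for intergenic tags per M, 11.7 to 13.4 for Meg3 promoter tags per M. For iPS minus MEF they were 36.6 to 51.6 for peak number, 26.6 to 35.1 for covered kb, 391 to 428 for domain tags per M, 39.6 to 45.3 for intergenic tags per M, 14.16 to 15.8 for Meg3 promoter tags per M. For Aid-/- minus Aid+/+ they were -8.67 to 0.0833 for peak number, -10.9 to -0.0232 for covered kb, -70.3 to 7.32 for domain tags per M, -6.23 to 7.48 for intergenic tags per M, -6.27 to -3.18 for Meg3 promoter tags per M. Of 11 fits against ES only 1 kept the call for domain tags and 1 for intergenic tags, while 8 kept that for the Meg3 promoter, and against MEFs the 3 fits with 2 cultures left lost their calls in a design whose adjusted p then was 0.0833. DMRs numbered 0 to 0 in Aid-/- iPS against Aid+/+ iPS, 0 to 1 in Aid+/+ iPS against Aid-/- iPS, 2 to 9 in Aid+/+ iPS against ES, 0 to 1 in ES against Aid+/+ iPS, 2 to 5 in Aid-/- iPS against ES, 0 to 0 in ES against Aid-/- iPS, 17 to 33 in Aid+/+ iPS against Aid+/+ MEF, 0 to 2 in Aid+/+ MEF against Aid+/+ iPS, 12 to 27 in Aid-/- iPS against Aid+/+ MEF, 0 to 0 in Aid+/+ MEF against Aid-/- iPS. By edgeR the calls numbered 0 to 0 for Aid-/- iPS against Aid+/+ iPS, 0 to 5 for Aid+/+ iPS against ES, 0 to 5 for Aid-/- iPS against ES, 4 to 10 for Aid+/+ iPS against MEF, 3 to 7 for Aid-/- iPS against MEF, the 5 against ES without B6 ES. Log2 fold changes ranged from -0.61 to 0.26 for the intergenic element, Aid-/- iPS against ES, 0.91 to 1.80 for Meg3, Aid-/- iPS against ES, -0.61 to -0.34 for the intergenic element, Aid-/- iPS against MEF, 0.10 to 0.23 for the intergenic element, Aid-/- iPS against Aid+/+ iPS, -0.34 to -0.14 for Meg3, Aid-/- iPS against Aid+/+ iPS, -0.77 to 0.11 for the intergenic element, Aid+/+ iPS against ES, 1.33 to 2.17 for Meg3, Aid+/+ iPS against ES, -0.78 to -0.58 for the intergenic element, Aid+/+ iPS against MEF.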
